A study of Mus musculus with 4 samples.

Results

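Neurotransmitter receptor genes were examined in bulk RNA-seq of the mouse cerebral cortex at embryonic day 15 (E15). The members were all genes of the deposited count table whose symbols matched the name patterns of 11 receptor classes: GABA-A, GABA-B, AMPA, kainate, NMDA, metabotropic glutamate, nicotinic, muscarinic, serotonin, dopamine and glycine receptors. The patterns found 50 of the 13289 genes, and all 50 passed the low-count filter. A further 30 symbols of the GENCODE M21 name list fit the same patterns and were not analysed here, among them Grin2a, Gabra6, Gabrg1, Glra1 and Drd2. The GABA-A pattern asks for a digit after the subunit letter, so Gabrd was not a member.

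The study compared 2 control libraries, titled WT, with 2 Lhx2 cKO libraries, read here as a conditional knockout of Lhx2, a LIM-homeodomain transcription factor of cortical progenitors. All 4 libraries were made from polyadenylated RNA of fresh cortex. The Cre driver, the floxed allele, the genetic background, the litter and whether tissue was pooled are not given in the sources used here. Nothing in the labels says that the libraries of a group came from separate embryos, so p-values measure the spread between these libraries, which may be technical. The test took most of that spread from all genes together, not from each gene alone. Library totals lay between 22294237 and 24609627 counts, at which 3 counts correspond to 0.122 to 0.135 CPM, read counts relative to the library total. Lhx2 itself was at 316 and 287 CPM in control and at 239 and 247 CPM in Lhx2 cKO (log2 fold change -0.31, adjusted p = 0.0191 in edgeR), so 80.7% of the control level remained in these whole-gene counts. All 7 markers of the cortical excitatory lineage on the list used (among them Emx1, Neurod2, Neurod6, Tbr1 and Bcl11b) were present in each library, with summed levels of 3673 and 3560 CPM in control and 3231 and 3223 CPM in Lhx2 cKO.

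Neurotransmitter receptors are the proteins through which neurons sense transmitters. Ionotropic receptors (GABA-A, glycine, AMPA, kainate, NMDA, nicotinic) are ion channels assembled from several subunits, and the choice of subunit sets their kinetics, permeability and pharmacology. Metabotropic receptors (GABA-B, metabotropic glutamate, muscarinic, dopamine, most serotonin receptors) signal through G proteins. In the embryonic cortex these receptors are present before most synapses form, GABA and glycine are typically depolarizing because internal chloride is high, and subunits are exchanged as neurons mature, with Gabra2 and Gabra3 the alpha subunits typical of embryonic GABA-A receptors.

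Promoter sequences are shown for 3 members that carry the contrast among chloride channel subunits: Gabra2, which fell, and Gabra3 and Glra2, which rose. They were chosen after their values were seen. Each is the run of 250 bases before the RefSeq start site (build GRCm38.p6), read 5′ to 3′ on the gene's strand, with CpG dinucleotides in capitals. None of the 3 runs touches an exon annotated in GENCODE M21.
Gabra2 (chr5:71095850-71096099, minus strand): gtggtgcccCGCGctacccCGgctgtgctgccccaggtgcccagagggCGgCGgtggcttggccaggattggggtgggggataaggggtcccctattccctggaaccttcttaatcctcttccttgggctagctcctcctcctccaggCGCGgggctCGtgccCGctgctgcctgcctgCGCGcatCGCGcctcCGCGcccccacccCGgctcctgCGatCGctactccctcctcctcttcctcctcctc
Gabra3 (chrX:72656920-72657169, minus strand, the first of 2 listed starts): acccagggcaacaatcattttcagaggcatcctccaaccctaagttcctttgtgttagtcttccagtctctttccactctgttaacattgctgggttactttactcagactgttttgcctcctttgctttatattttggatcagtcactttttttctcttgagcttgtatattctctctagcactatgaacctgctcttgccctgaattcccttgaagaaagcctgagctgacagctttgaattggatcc
Glra2 (chrX:165327394-165327643, minus strand): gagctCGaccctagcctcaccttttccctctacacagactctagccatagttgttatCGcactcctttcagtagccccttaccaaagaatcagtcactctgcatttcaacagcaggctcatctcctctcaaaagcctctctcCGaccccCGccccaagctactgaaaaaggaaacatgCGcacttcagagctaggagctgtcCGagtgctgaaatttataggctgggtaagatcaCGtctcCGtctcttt
The Gabra2 run holds 18 CpG dinucleotides and is 70% G or C, the Gabra3 run holds 0 CpG at 42.4% G or C, and the Glra2 run holds 8 at 50.4%. Over the 32851 promoters of the same table the median was 6 CpG in this window, 7.87% held 0 and 21.7% held at least as many as Gabra2. TAATTA, the core sequence that LIM-homeodomain proteins bind (a palindrome, so both strands were read at once), was in none of these 3 runs. The full windows ran from 250 bases before to 50 after the start. Among members with an entry called higher (adjusted p under 0.05 in edgeR), these windows held from 0 (Gabra3) to 50 CpG (Grik3). Those of members called lower held from 22 (Grin2c) to 35 (Chrna7). Whether CpG content goes with the direction of change was not tested. In the full windows TAATTA was found for 2 of the 37 members with an entry, Chrnb1 and Htr2a. Counted by promoter, it was in 2 of the members' 45 (4.44%) and in 5.29% of all promoters. This says only that those letters are absent from or present in these windows.

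Of the 50 receptor genes, 26 differed between the groups at an adjusted p under 0.05 in edgeR's quasi-likelihood test (called below). In Lhx2 cKO 23 of these were higher and 3 were lower. Over all genes tested 20.8% were called, 11.6% higher and 9.17% lower. The members' median log2 fold change was 0.44, against 0.003 over all genes tested, and 40 of the 50 estimates were above 0. Both Lhx2 cKO libraries lay above both control libraries for 35 members (30.2% of all genes tested) and below both for 7 (29.1%), so that 42 did not overlap (59.3%). Of the 20 members with a mean of at least 500 counts 15 were called, and of the other 30 members 11. The share of all genes called at these counts was not computed, so this split is not a result about the members. Of the 26 calls, 9 reached a 2-fold change and 7 stayed under 1.5-fold. The table holds no gene with a total under 102 counts, so these counts describe receptor genes above that level. The adjusted p of 27 members lies below 0.05 in the authors' deposited table, as it does for 20.5% of its 13289 genes, and 25 of them are among the 26. The authors' own column of changed genes is narrower and marks 17 members up and 4 down in the authors' deposited table. By adjusted p that table adds Grm7 (log2 fold change 1.13, adjusted p 0.0382 in the authors' deposited table) and Chrna3 (-1.07, 0.0499 in that authors' deposited table), and leaves out Grik2 (0.28, 0.0574 in the authors' deposited table).

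**Figure D1:**
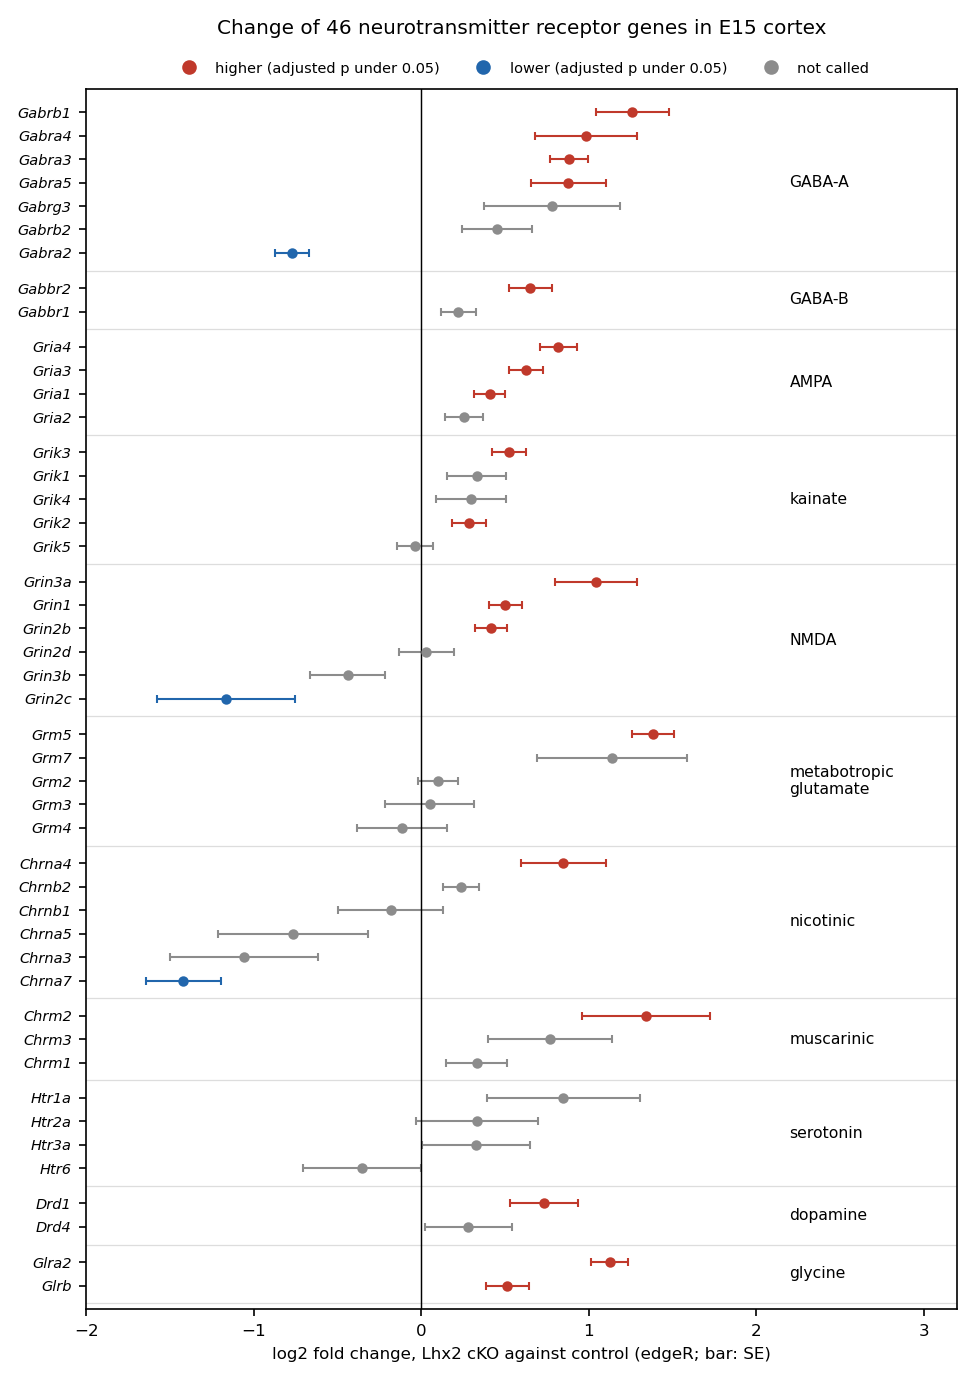
Log2 fold change of 46 of the 50 receptor genes, Lhx2 cKO against control, by class, with bars of 1 SE from edgeR on 2 libraries per group. Red and blue points are called higher and lower, grey points are not called. The 3 blue points are Gabra2, Grin2c and Chrna7, and Grm5 at 1.39 is the red point with the smallest adjusted p.

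Markers of several other cell types also differed between the groups. For comparison, 11.6% of all genes tested were called higher and 9.17% lower. The summed level of 6 Cajal-Retzius markers was 295 and 326 CPM in control and 447 and 570.02 CPM in Lhx2 cKO, with 4 of 6 called higher. That of 9 interneuron markers was 262 and 227 CPM against 316 and 311 CPM, with 3 of 9 called higher. Of these, 1 marker rose from 43.0 and 41.7 to 83.0 and 95.3 CPM and made up much of the difference in the sum. The other 6 were not called, and the groups overlapped for 3 of the 9. Markers of astrocytes (156 and 139 against 399.7 and 459.9 CPM, 6 of 7 called higher) and oligodendrocyte precursors (46.8 and 53.6 against 87.9 and 96.5 CPM, 5 of 6 called higher) were also above control. Microglial markers were at 114 and 114 against 230 and 254 CPM, with 7 of 8 called higher. Cell cycle markers summed to 328 and 371 CPM in control and 212 and 211 CPM in Lhx2 cKO, with 5 of 6 called lower, and intermediate progenitor markers to 482 and 478 against 257 and 264 CPM, with 4 of 5 called lower. The 8 pan-neuronal markers summed to 4077 and 4047 CPM in control and 4334 and 4611 CPM in Lhx2 cKO, with 3 called higher and 1 lower. Upper-layer neuron markers were at 1249 and 1110.0 against 998 and 945 CPM, with 4 of 6 called lower and 1 higher. Deep-layer and subplate markers were at 541.3 and 524.1 against 541.6 and 525.5 CPM, with 2 of 7 called higher and 1 lower. Radial glia markers were at 720.5 and 774 against 733 and 712 CPM, so these sums overlapped, with 1 of 9 called higher and 2 lower. Vascular and meningeal markers were at 159.7 and 175 against 196 and 222 CPM, with 3 of 5 called higher and 1 lower, the latter at 12.5% of control. Red blood cell markers were at 3132 and 2308 against 2074 and 1857 CPM, with 5 of 5 called lower. None of these markers was at 0 in any library; Lhx1 and Nkx2-1, on the Cajal-Retzius and interneuron lists, were not analysed here. The part of these populations in the receptor values was not tested. In bulk tissue, more cells of a type and more RNA per cell cannot be told apart.

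GABA-A receptors are chloride channels built from alpha, beta and a further subunit such as gamma. Of their 10 members, 7 rose and 1 fell, where 20.8% of all genes were called. The groups did not overlap for any of the 10, nor for 59.3% of all genes. The class median log2 fold change was 0.83. Gabra2 (ENSMUSG00000000560.10), an alpha subunit typical of embryonic neurons, fell, with 56.4 and 58.4 CPM in control and 35.2 and 32.04 CPM in Lhx2 cKO (log2 fold change -0.77, SE 0.104, adjusted p = 2.34e-07). Gabra3 (ENSMUSG00000031343.14), the other abundant embryonic alpha subunit, rose from 23.1 and 25.4 CPM to 40.8 and 48.6 CPM (0.88, SE 0.113, adjusted p = 9.54e-08). The spread within each group was small beside both of these differences.

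The less abundant Gabra5, known for extrasynaptic receptors, was at 3.71 and 5.28 CPM in control and 7.12 and 9.45 CPM in Lhx2 cKO (log2 fold change 0.88, adjusted p = 0.00338). Gabra4 was at 1.77 and 2.44 CPM against 4.13 and 4.22 CPM (0.98, adjusted p = 0.0174). These 2 calls were less firm than the preceding ones: without control 1 the adjusted p was 0.0912 for Gabra5 and 0.188 for Gabra4, and without Lhx2 cKO 2 it was 0.122 and 0.0959. Without Lhx2 cKO 1 Gabra4 was at 0.0632.

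Beta subunits are needed for delivery of GABA-A receptors to the cell surface. Gabrb1 rose from 3.34 and 4.24 CPM to 8.97 and 9.23 CPM (1.26, adjusted p = 2.28e-05). Gabrb2, at 6.19 and 5.16 CPM against 7.34 and 8.18 CPM, did not pass the threshold (0.45, adjusted p = 0.121). Gabrg3, a gamma subunit at 1.90 and 0.8002 CPM against 2.02 and 2.61 CPM, was not called (0.78, adjusted p = 0.178), but it was without control 1 (1.52, adjusted p = 0.038).

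The makeup of the alpha subunits is given by their shares. Expressed per length, as CPM per kilobase of deposited gene length, Gabra2 made up 49.4% and 46.5% of the 5 alpha subunits in control and 24.2% and 19.6% in Lhx2 cKO. Gabra3 made up 39.5% and 39.4% in control against 54.7% and 58.03% in Lhx2 cKO, so the order of the leading pair was exchanged. The share of Gabra5 went from 8.35% and 10.8% to 12.6% and 14.9%. The summed alpha level was 15.7 ± 1.06 CPM per kilobase in control and 20.2 ± 1.64 in Lhx2 cKO (SD, n = 2), and without division by length 89.3 ± 4.72 and 97.6 ± 4.72 CPM. With 2 libraries against 2, the smallest two-sided p of an exact permutation test is 0.333, so these shares and sums are given without a test.

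**Figure D2:**
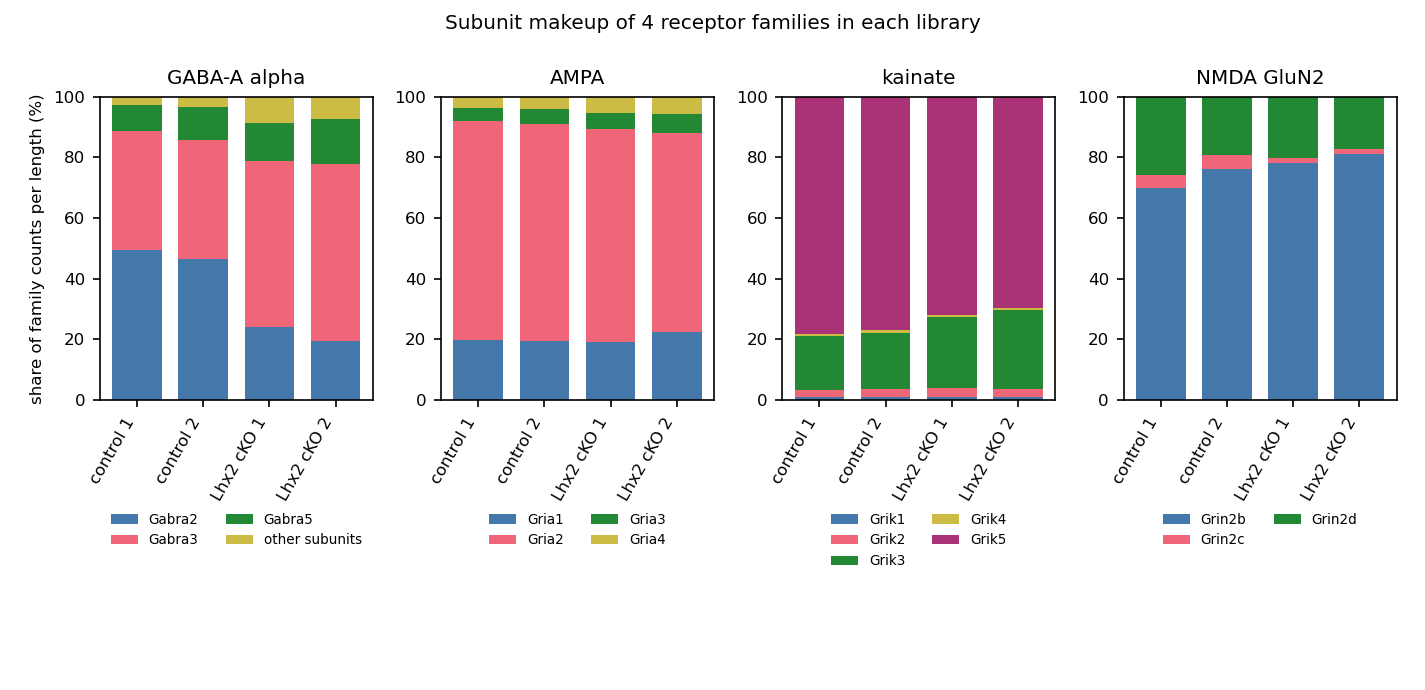
Share of each subunit in the counts per length of its family, in percent, for each of the 4 libraries; stacked bars sum to 100, and the smaller alpha subunits are drawn together as other subunits. Gabra2 (blue) falls below Gabra3 (pink) in both Lhx2 cKO libraries of the GABA-A alpha panel, while Gria2, Grik5 and Grin2b remain the leading subunit of their families in all libraries.

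Most GABA-A subunit genes lie in clusters, and neighbours did not move alike in the cluster on chromosome 5. In RefSeq order Gabra2 is followed, after 1 other protein-coding gene, by Gabra4 and Gabrb1, which adjoin each other. Gabra2 fell while Gabra4 and Gabrb1 rose, as given above. On chromosome 7 Gabrg3 and Gabra5 adjoin and were at 0.78 and 0.88, of which the latter was called. The exons of Gabra4 and Gabrb1 share 46 bases on opposite strands in GENCODE M21.

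Glycine receptors, the other chloride channels, were represented by Glra2 (ENSMUSG00000018589.9), the alpha subunit characteristic of embryonic brain, and Glrb, the beta subunit that binds gephyrin. Both rose. Glra2 was at 28.1 and 36.5 CPM in control and 65.7 and 75.4 CPM in Lhx2 cKO. The groups were well apart, and the log2 fold change was 1.13 (SE 0.112, adjusted p = 2.29e-10). Glrb was at 17.9 and 23.4 CPM against 28.4 and 30.6 CPM (0.51, adjusted p = 0.00274), but without control 1 its log2 fold change was 0.32 and its adjusted p 0.161. Glrb adjoins Gria2 on chromosome 3.

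GABA-B receptors are obligate pairs of Gabbr1, which binds GABA, and Gabbr2, which couples to the G protein. Gabbr2 rose from 19.4 and 18.4 CPM to 26.2 and 33.1 CPM (log2 fold change 0.65, SE 0.128, adjusted p = 0.00018). Gabbr1 was at 535 and 539.7 CPM in control and 597 and 657 CPM in Lhx2 cKO. The groups did not overlap, but the log2 fold change of 0.22 did not pass the threshold (adjusted p = 0.132). Per length Gabbr1 was at 69.2 CPM per kilobase in control and Gabbr2 at 2.82.

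Among the ionotropic glutamate receptors, AMPA receptors carry fast excitation. Gria1, Gria3 and Gria4 rose, and Gria2, whose edited form blocks calcium entry, did not pass the threshold. Gria4 was at 26.1 and 32.2 CPM in control and 52.3 and 50.5 CPM in Lhx2 cKO (log2 fold change 0.82, SE 0.11, adjusted p = 2.45e-07). Gria3 was at 51.1 and 57.7 CPM against 79.3 and 88.98 CPM (0.63, adjusted p = 8.07e-06), and Gria1 at 137 and 142 CPM against 178 and 192 CPM (0.41, adjusted p = 0.00134). In each of these 3 called genes both Lhx2 cKO libraries were above both controls, as they were for 30.2% of all genes tested. Gria2, the most abundant member in CPM, was at 1271 and 1340.4 CPM against 1684 and 1433 CPM (0.26, adjusted p = 0.117). Among the fits that left out 1 library it was called without Lhx2 cKO 2, at 0.36 (adjusted p = 0.0489). Per length Gria2 made up 71.7% ± 0.303 of the 4 subunits in control and 67.8% ± 3.46 in Lhx2 cKO (SD, n = 2), and Gria4 3.93% ± 0.424 and 5.53% ± 0.215. The share of Gria1 was 19.9% and 19.5% in control against 19.1% and 22.5% in Lhx2 cKO, so its groups overlapped.

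Kainate receptors combine the subunits Grik1 to Grik3 with the high-affinity subunits Grik4 and Grik5. Grik3 rose from 231 and 211 CPM to 291 and 345 CPM (log2 fold change 0.53, SE 0.101, adjusted p = 0.000131). Grik5 had the highest level per length of all 50 members, 104 CPM per kilobase in control and 102 in Lhx2 cKO. It was at 579 and 501 CPM against 521 and 531 CPM, so the groups overlapped (-0.04, adjusted p = 0.845). Grik2 was called narrowly, at 44.5 and 43.1 CPM against 54.6 and 52.2 CPM (0.29, adjusted p = 0.0382). That call was lost with DESeq2 (0.0862), with library totals in place of TMM (0.0733) and on leaving out any 1 library (0.102 to 0.17). Grik1 (8.66 and 8.28 CPM against 11.4 and 9.92 CPM) was at 0.33 and was not called, nor was Grik4 (5.48 and 6.16 CPM against 7.34 and 6.96 CPM) at 0.30. Per length, Grik5 made up 78.1% and 77.0% of the family in control and 71.9% and 69.5% in Lhx2 cKO, and Grik3 18.0% and 18.7% against 23.1% and 26.03%.

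NMDA receptors need Grin1 together with a Grin2 or Grin3 subunit. Grin1, the obligatory subunit, was at 48.9 and 49.1 CPM in control and 69.97 and 68.95 CPM in Lhx2 cKO (log2 fold change 0.50, SE 0.0992, adjusted p = 0.000181). Grin2b, the main embryonic Grin2 subunit of cortex, was at 177 and 177 CPM against 244 and 229 CPM (0.42, adjusted p = 0.00107). Each group was tight and the groups were apart in both genes. Grin1 shares 1307 exonic bases, 13.5% of its deposited length, with Grin1os on the other strand in GENCODE M21, and the use of strand in counting is not given in the sources used here, so its counts are uncertain to that extent.

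Grin3a, a subunit that lowers calcium permeability, rose from 3.05 and 3.56 CPM to 5.93 and 7.70 CPM (log2 fold change 1.04, adjusted p = 0.00156), and without Lhx2 cKO 2 its adjusted p was 0.0691. Grin2c, best known from the cerebellum, was called lower, at 2.19 and 2.24 CPM in control (53 and 56 counts) and 1.01 and 0.958 CPM in Lhx2 cKO (23 and 22 counts; -1.16, adjusted p = 0.0375). The Grin2c call was lost with DESeq2 (0.0857) and on leaving out any 1 library (0.1 to 0.168). Grin2d, another subunit of embryonic brain, was at 17.6 and 11.96 CPM against 17.01 and 13.1 CPM, with overlapping groups (0.03, adjusted p = 0.922). Grin3b, of whose deposited length 32.1% overlaps exons of Tmem259 on the other strand, was at -0.44 (adjusted p = 0.168).

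Metabotropic glutamate receptors fall into groups by coupling. Grm5 (ENSMUSG00000049583.16), which couples to phospholipase C, rose. It was at 13.9 and 13.2 CPM in control and 35.5 and 35.3 CPM in Lhx2 cKO. The replicates nearly coincided, and the log2 fold change of 1.39 (SE 0.125) had the smallest adjusted p of all members, 1.57e-11.

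The 4 members of the groups that inhibit adenylyl cyclase were not called. Grm2, the most abundant of the class per length, was at 29.98 and 28.6 CPM in control and 27.7 and 35.1 CPM in Lhx2 cKO (log2 fold change 0.10, adjusted p = 0.609). Grm3 was at 0.05 and Grm4 at -0.11, and the groups overlapped for Grm2, Grm3 and Grm4. Grm7 was at 0.619 and 1.08 CPM against 1.54 and 2.22 CPM (1.14, adjusted p = 0.0648), and without control 2 it was called (1.60, adjusted p = 0.0429). A difference between Grm5 and these receptors was not tested.

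Nicotinic acetylcholine receptors were the only class with a median below 0, -0.47 over 6 genes, and with a mean count of at least 50 required, which leaves out its rarest genes, that median was 0.03. Chrna7 (ENSMUSG00000030525.9), which forms homomeric channels with high calcium permeability, fell from 8.70 and 9.24 CPM in control (211 and 231 counts) to 3.87 and 2.83 CPM in Lhx2 cKO (88 and 65 counts). This was the largest fall among the members, at -1.42 on the log2 scale (SE 0.225, adjusted p = 5.85e-06). Chrna4, which pairs with Chrnb2 in the main heteromeric receptor of the forebrain, rose from 3.09 and 3.56 CPM to 6.55 and 5.44 CPM (0.85, adjusted p = 0.0127), with an adjusted p of 0.101 without control 1 and 0.121 without Lhx2 cKO 1. Chrnb2 itself was at 223 and 203 CPM against 216 and 287 CPM. The groups overlapped, and the estimate of 0.24 (adjusted p = 0.112) ranged from 0.01 without Lhx2 cKO 2 to 0.43 without Lhx2 cKO 1, where it was called (adjusted p = 0.00491). Of the Chrnb2 length 16.3% overlaps Adar exons on the other strand. The adjoining genes Chrna5 and Chrna3 were each below control in both Lhx2 cKO libraries, Chrna3 at 1.77 and 1.88 CPM against 0.659 and 1.09 CPM, but at -0.77 and -1.06 they were not called (adjusted p = 0.238 and 0.0843).

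The remaining classes were sparse. Chrm2, a muscarinic receptor that inhibits adenylyl cyclase, was at 1.44 and 0.920 CPM in control (35 and 23 counts) and 3.21 and 2.79 CPM in Lhx2 cKO (73 and 64 counts; log2 fold change 1.34, adjusted p = 0.00895), with an adjusted p of 0.0919 without control 2 and 0.0571 without Lhx2 cKO 1. Chrm1, coupled to phospholipase C, was at 10.7 and 7.24 CPM against 10.8 and 11.7 CPM (0.33, adjusted p = 0.207; 0.62 and 0.0473 without control 1). Chrm3, of the same coupling, was at 0.77 (adjusted p = 0.141), and at 1.13 (0.047) without Lhx2 cKO 1.

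Drd1, the dopamine receptor that stimulates adenylyl cyclase, was at 4.95 and 6.16 CPM in control and 7.999 and 10.5 CPM in Lhx2 cKO. The groups did not overlap (log2 fold change 0.73, SE 0.205, adjusted p = 0.00767), but without control 1 the adjusted p was 0.112 and without Lhx2 cKO 2 it was 0.21. Drd4, of the inhibitory dopamine receptors, was at 3.75 and 3.88 CPM against 4.53 and 4.74 CPM (0.28, adjusted p = 0.495). Of the 4 serotonin receptor genes, 0 were called with edgeR, 0 with DESeq2, and 0 had an unadjusted p under 0.05 in edgeR. Htr3a, the subunit of the ion channel that marks a class of interneurons, was at 2.80 and 2.08 CPM against 3.03 and 3.09 CPM (0.33, adjusted p = 0.525), and Htr6 at 3.18 and 2.08 CPM against 2.07 and 2.05 CPM (-0.35, adjusted p = 0.534).

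**Figure D3:**
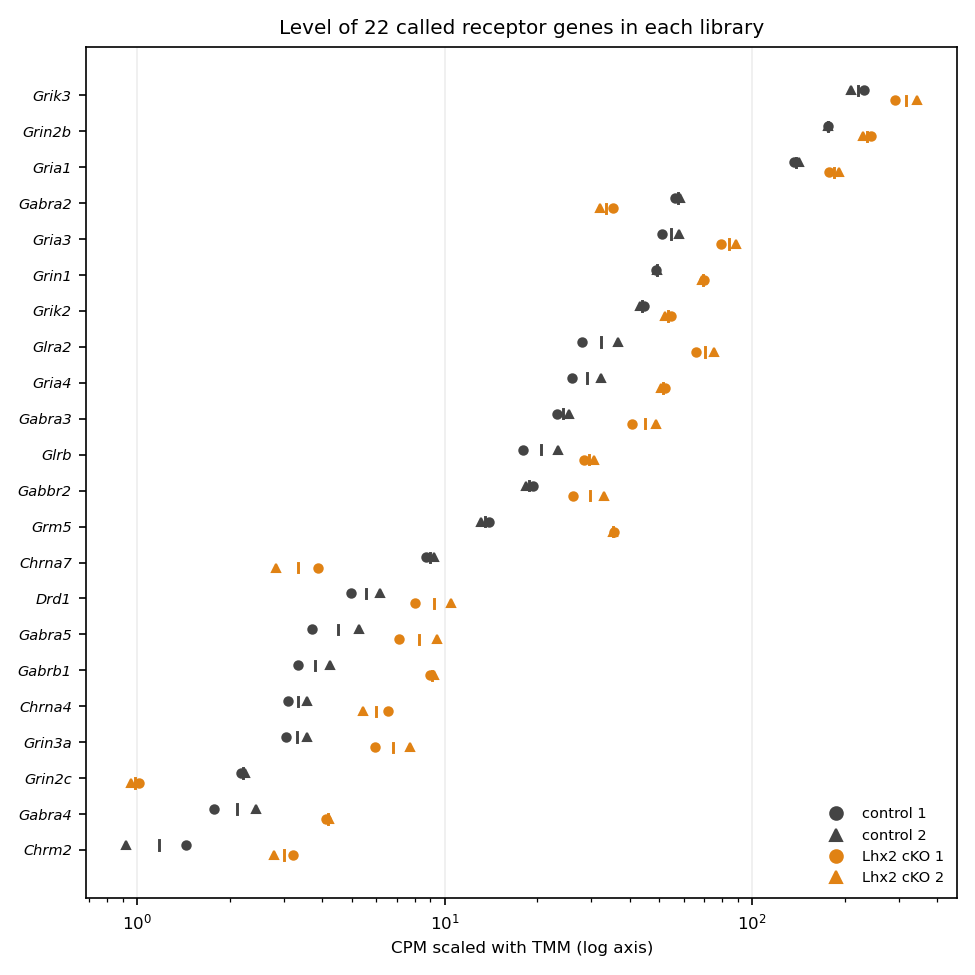
CPM scaled with TMM, on a log axis, of 22 of the 26 called receptor genes in each library; circles are replicate 1, triangles replicate 2 and short vertical lines group means. Control (dark grey) and Lhx2 cKO (orange) do not overlap for any of these genes, which were chosen by their calls, nor for 59.3% of all genes tested. Orange lies to the left only for Gabra2, Chrna7 and Grin2c.

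Genes that act with the receptors, and further receptor genes, were followed on lists of 119 genes, of which 87 were in the table, all of them tested. These 87 include 18 receptor genes that the name patterns do not cover, 6 of them called higher, which are described further among the other observations. Of the 87, 31 were called higher and 6 lower, with a median log2 fold change of 0.25, where 11.6% of all genes were called higher and 9.17% lower. Without control 1 the count was 20 higher and 4 lower. Of 13 AMPA receptor auxiliary subunits, 8 rose and 2 fell. Gsg1l, which slows recovery of AMPA receptors, was at 26.6 and 27.1 CPM in control and 56.04 and 68.2 CPM in Lhx2 cKO (log2 fold change 1.21, adjusted p = 1.51e-11). Cacng5 was also at 1.21 (adjusted p = 4.63e-10) and Cacng4 at 0.44 (0.00094), while Shisa6 fell, at -1.04 (1.09e-05). Both kainate receptor auxiliary subunits rose, Neto1 at 0.79 (adjusted p = 4.19e-05) and Neto2 at 0.76 (1.61e-07).

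Of 18 scaffolds of glutamatergic synapses 2 rose (11.1%, beside 11.6% of all genes) and 4 fell (22.2%, beside 9.17%), and the list median was -0.07. Dlgap1 rose by 1.14 on the log2 scale (adjusted p = 1.79e-11), while Dlg1 was at -0.90 (3.62e-09), Homer3 at -0.53 (0.000317) and Dlg4, the postsynaptic density scaffold, at -0.52 (0.000499). Dlg4 was at 389.8 and 284 CPM in control and 226 and 245 CPM in Lhx2 cKO. Of 10 inhibitory receptor partners 2 rose, Kctd12, an auxiliary subunit of GABA-B receptors, at 0.47 (adjusted p = 0.000301) and Lhfpl4, a partner of GABA-A receptors, at 0.34 (0.00962). Gphn, which encodes the inhibitory scaffold gephyrin, was at 0.06 (adjusted p = 0.808). Of 5 nicotinic partners Lypd6 (0.86, adjusted p = 1.38e-07), Tmem35a (0.49, 0.000261) and Lynx1 (1.16, 0.0433) rose.

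Of 8 genes for transmitter synthesis and vesicular loading 2 rose (25%, beside 11.6% of all genes) and 0 fell. Slc32a1, the vesicular transporter of GABA and glycine, rose by 0.58 (adjusted p = 0.00141) and Gad2 by 0.48 (0.00196). Gad1, more abundant than Gad2, was at -0.07 with overlapping groups and was not called (adjusted p = 0.689). Gad1, Gad2 and Slc32a1 are also on the interneuron marker list. The vesicular glutamate transporters Slc17a6 and Slc17a7 were at -0.17 and -0.12 and were not called. Of 11 genes of uptake and breakdown 6 rose (54.5%, beside 11.6% of all genes) and 0 fell (beside 9.17%). Of the genes that rose, Slc1a2 is also on the astrocyte marker list and another is on the radial glia marker list. Slc6a11, a GABA transporter of astrocytes, went from 8.58 and 9.36 CPM to 22.1 and 30.3 CPM (log2 fold change 1.55, adjusted p = 2.37e-10), Slc1a2, the astrocyte glutamate transporter, was at 0.90 (8.03e-07), and Slc1a1 at 0.48 (0.000779). The chloride transporters that set the direction of GABA and glycine currents were not called: Slc12a2, which imports chloride, was at 44.1 and 48.97 CPM against 39.6 and 46.2 CPM, and Slc12a5, which exports it, at 22.6 and 18.9 CPM against 22.4 and 21.7 CPM. The groups overlapped for both.

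**Figure D4:**
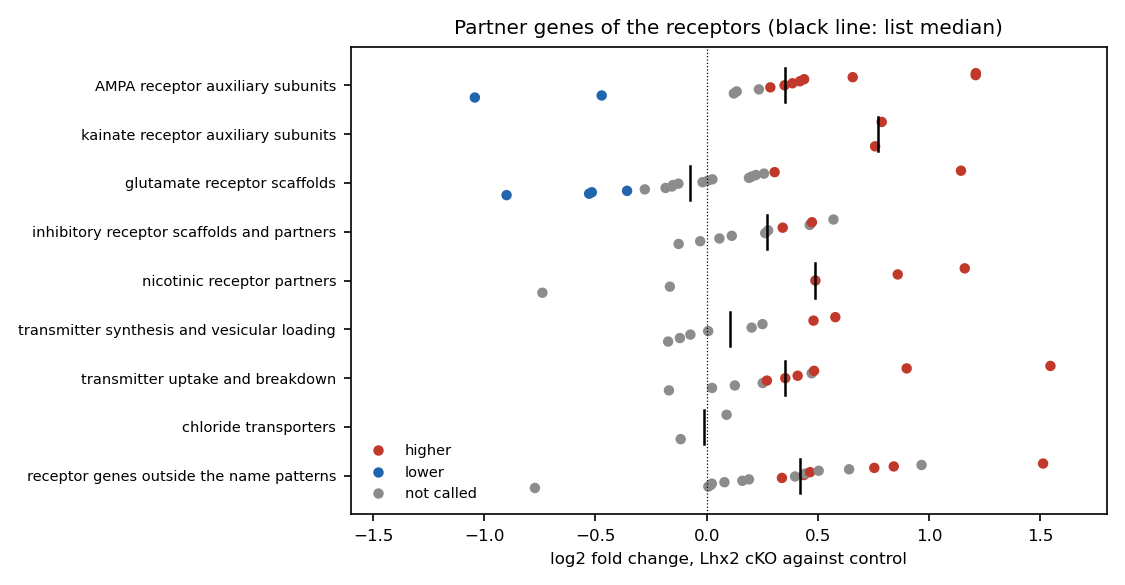
Log2 fold change, Lhx2 cKO against control, of the 87 partner genes by list; red and blue points are called higher and lower, grey points not called, and black lines are list medians. The scaffold list spreads to both sides of 0 with a median of -0.07, whereas the kainate auxiliary subunits lie at 0.76 and 0.79.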

How the data were processed

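Polyadenylated RNA of E15 mouse cortex was sequenced in 2 control and 2 Lhx2 cKO libraries, grouped by their titles. The authors deposited unnormalized read counts for each gene; the submitters' processing notes name Trim Galore, Subread, featureCounts, edgeR and the build mm39, without roles. The authors' deposited table also gives their log2 fold change, log2 CPM, p-values and adjusted p-values, the -log10 of the latter, and gene lengths. The strand setting and the annotation are not given in the sources used here. The lowest row total was 102 counts, so no gene with a lower total was tested.

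Counts were tested with edgeR 4.0.16 in R 4.3.3 (TMM, filterByExpr with a minimum of 10 counts, glmQLFit and glmQLFTest, two-sided, no covariates), with Benjamini-Hochberg adjustment over 13288 genes; adjusted p-values are from this test unless another is named. The variance of each gene was drawn strongly toward a value shared over genes (prior degrees of freedom 38.7), so p-values and SE rest mostly on that value. The SE was taken from the F statistic, as |log2 fold change| over its square root. CPM are scaled with TMM, and levels per length divide by the deposited length in kilobases. Alternatives were other scalings, filters, a replicate block, DESeq2 1.42.0, limma-voom (limma 3.58.1), a threshold of 0.01 and leaving out each library. Intervals from counting would cover counting error only, since reads carry no molecular identifiers. The members, the partner and marker lists and the tests were chosen with earlier results of these data known. Named were the called members, the 2 most abundant per length in each class, and up to 4 called genes of each partner list by smallest p; some genes, 4 of them members, are counted but not reported here by name. The others that are named were chosen after their values were seen. The 2 libraries of a group differed by more than counting noise (chi-square over its degrees of freedom, 13.9 in control and 14.3 in Lhx2 cKO). Each library was counted as 1 sample, but this spread may be technical and does not show that they came from separate embryos. Promoters are from RefSeq (GRCm38.p6) and matched by symbol for 37 of 50 members; the files' build is mm39, so no coordinates were joined.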

Additional observations from a re-analysis of the deposited data

How the results depend on the processing

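The count of 26 called members was 24 to 26 under the other scalings, filters, tests and the replicate block, 22 at an adjusted p under 0.01 and 20 to 24 on leaving out 1 library, where the lone library is assumed to vary like the other group. No called member changed sign in any of these fits. The deviations of same-numbered libraries had a correlation of 0.001 across genes. A single value over all genes cannot show whether these libraries shared a litter or batch, which is not given. The replicate block called 26 members, the same 26 genes, and changed no other call among those named. Calls lost with all libraries kept were those of Grik2 and Grin2c (DESeq2), Grik2 (library totals), and Grin2c and Chrm2, which a mean count of at least 50 removed from the test. Grik5 changed sign, uncalled, at 0.06 without control 1, and Grm2 at -0.08 without Lhx2 cKO 2.

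Over all genes, 2758 were called (1540 higher, 1218 lower). At an adjusted p under 0.01 these were 1697, 972 and 725, fewer by construction. Leaving out 1 library gave 1632 to 2396 calls, 864 to 1395 higher and 768 to 1079 lower, with the lowest values without Lhx2 cKO 2; without control 1 there were 1788. For partner genes the corresponding ranges were 24 to 33 called and 20 to 28 higher, lowest without control 1.

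A mean count of at least 50 moved class medians by removing the rarest genes, to 0.4252 for NMDA, 0.1078 for metabotropic glutamate, 0.0337 for nicotinic and 0.5569 for muscarinic receptors. Leaving out 1 library gave medians of 0.6204 to 0.9774 for GABA-A, 0.2536 to 0.3296 for kainate, 0.1001 to 0.3629 for NMDA, 0.4563 to 0.7817 for metabotropic glutamate, -0.5925 to -0.2383 for nicotinic, 0.2761 to 1.133 for muscarinic and 0.1213 to 0.4836 for serotonin receptors. The cause was not tested.

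Without division by length, the change in share in percentage points was -29.8 for Gabra2 (-26.0 per length), -8.36 for Grik5 (-6.86), 2.40 for Grin2b (6.58) and -0.752 for Grin2c (-2.87), by construction of the scale. The change for Gria1, 1.14 points, ranged from -0.571 to 2.84 points and reversed without Lhx2 cKO 2 (-0.571).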

Other observations

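Of 18 receptor genes in the table that the name patterns do not cover (counted among the 87 listed genes above), 6 were called higher in Lhx2 cKO and 0 lower in edgeR, where 11.6% of all genes were called higher. Adra2c, an adrenergic receptor that inhibits adenylyl cyclase, was at 26.6 and 29.4 CPM in control and 43.1 and 51.3 CPM in Lhx2 cKO (log2 fold change 0.75, adjusted p = 1.61e-06). The histamine receptor gene Hrh3 was at 0.84 (adjusted p = 0.0115) and the cannabinoid receptor gene Cnr1 at 0.34 (0.017). Gabrd, the delta subunit of extrasynaptic GABA-A receptors, was at 0.50 and was not called (adjusted p = 0.288).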
